A study of Arabidopsis thaliana with 8 samples.

Results

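The genes described here are 8 members of the calmodulin-like (CML) family of Arabidopsis thaliana known to be induced by touch or wounding: CML12 (TCH3, AT2G41100), CML23 (AT1G66400), CML24 (TCH2, AT5G37770), CML37 (AT5G42380), CML38 (AT1G76650), CML39 (AT1G76640), CML40 (AT3G01830) and CML41 (AT3G50770). They were taken by locus identifier from the 36796 genes of a deposited count table. All 8 were in the table, and all 8 passed the count filter that left 20214 genes for testing. The libraries were made from poly(A) RNA of whole Col-0 rosettes, taken at 17 days before bolting and 6 hours after lights on, from plants grown on soil in 16 h of light and 8 h of dark at 22°C. The study compared 4 wild-type libraries with 4 libraries of the double mutant hta9 hta11, called the mutant below, each from a pool of 5 plants; the protocol itself mentions fewer replicates than are listed. HTA9 and HTA11 are genes for H2A.Z, a variant of histone H2A that is found at many stress-responsive genes. The comparison asks how transcript levels differ where both are mutated; the kind of each mutation is not given in the labels.

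Calmodulin and its relatives bind calcium through EF-hand motifs and pass a calcium signal on to the proteins they bind. Bending, touching or wounding a leaf quickly raises cytosolic calcium, and transcripts of several CML genes follow soon after; TCH2 and TCH3 were named for this touch response. Calmodulin-binding transcription activators (CAMTA factors) recognise CGCG-containing DNA, and CGCGTT is the core of the rapid stress response element.

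Depth ran from 31611735 to 47467130 counts per library, both ends being mutant libraries, 3 and 1. Levels are given as CPM, the count scaled to a common library total after TMM normalization. HTA9 stood at 104, 91.5, 99.8 and 86.0 CPM in wild-type libraries 1 to 4 and at 60.6, 14.8, 33.4 and 16.5 CPM in mutant libraries 1 to 4. HTA11 stood at 54.1, 38.5, 45.4 and 41.6 CPM and at 26.03, 2.98, 14.1 and 3.604 CPM. Every mutant library was below every wild-type library in both genes, and mutant libraries 1 and 3 held more of both than 2 and 4. All 6 leaf markers checked were expressed well enough to be tested, whereas the 4 root hair markers together reached at most 0.217 CPM in any library and RHD6 had no count. In whole rosettes, fewer cells of a type and less RNA per cell cannot be told apart.

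By the RefSeq annotation of TAIR10.1, CML12 lies on chromosome 2, 17137037 to 17139700, CML23 on chromosome 1, 24770419 to 24771393, CML24 on chromosome 5, 14997514 to 14999619 and CML37 on chromosome 5, 16942447 to 16943820. CML38 lies on chromosome 1, 28766750 to 28768138, CML39 on chromosome 1, 28765254 to 28765866, CML40 on chromosome 3, 296024 to 299263 and CML41 on chromosome 3, 18873911 to 18874836. CML12, CML40 and CML41 are on the plus strand and the other 5 on the minus strand. CML12 has 4 coding exons and the other 7 have 1. CML38 and CML39 are neighbours with 883 bases between them, and their coding sequences shared 77.8% of aligned bases, with a longest identical run of 34 bases. CML23 and CML24 shared 77.4%, with a longest identical run of 21 bases. No other of the 28 pairs exceeded 59.8%, the value of CML37 with CML39. How reads that match more than 1 gene were counted is not given in the sources used here. The nearest protein-coding gene upstream of CML23 is the calmodulin gene CAM4, and that upstream of CML24 is CAM1. CML12 begins 37 bases after AT2G41090, which encodes an EF-hand calcium-binding protein, and the calmodulin gene CAM2 follows it.

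The promoters of the paralogs CML23 and CML24 are shown because they were the only members whose 250 bases before the annotated start held CGCGTT. The bases are from the RefSeq genome, assembly TAIR10.1, 5′ to 3′ on the strand of the gene, and capitals mark CGCGTT or CGCGTG on either strand, both of which contain the CGCG searched with them.
CML23, chr1:24771394-24771643, minus strand: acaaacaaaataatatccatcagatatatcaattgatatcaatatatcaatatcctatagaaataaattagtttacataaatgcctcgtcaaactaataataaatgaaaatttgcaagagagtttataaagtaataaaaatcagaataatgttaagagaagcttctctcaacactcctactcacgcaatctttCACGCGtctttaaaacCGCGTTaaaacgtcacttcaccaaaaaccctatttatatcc
CML24, chr5:14999620-14999869, minus strand: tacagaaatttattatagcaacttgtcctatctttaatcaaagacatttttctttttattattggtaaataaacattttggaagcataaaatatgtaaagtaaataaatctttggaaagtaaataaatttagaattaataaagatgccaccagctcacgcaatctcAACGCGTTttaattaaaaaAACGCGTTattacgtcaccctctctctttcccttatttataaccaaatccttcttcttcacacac
CML23 held CGCGTT from base 41 to base 36 before the start and CGCGTG, read on the other strand, from base 57 to base 52. CML24 held a palindrome in which CGCGTT is read on both strands, from base 84 to base 77 and again from base 65 to base 58. Of 27443 promoters of protein-coding genes of this length, 2.59% held CGCGTT and 2.57% held CGCGTG. The shorter CGCG was in 2783 of them and, among the 8, also in CML40. The W-box forms TTGACC and TTGACT were found in CML38 and CML40, against 12.2% and 19.1% of all promoters, and the G-box CACGTG in 0 of the 8, against 6.49%. A match describes the letters and is not a measured binding site.

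The genotype difference passed the threshold for 0 of the 8 genes in edgeR's quasi-likelihood F test, and for 0 in DESeq2 and limma-voom. The edgeR test was fitted over all tested genes, 2-sided, with Benjamini-Hochberg adjustment and a threshold of 0.05. It called 3.74% of tested genes, 2.49% higher and 1.25% lower in the mutant, so that 0 of 8 is not set apart from that background. One gene, CML24, had an unadjusted p under 0.05, as did 18.0% of tested genes. The fitted log2 fold change of mutant over wild type was below 0 in 6 of the 8 and in 50.3% of tested genes. Its median was -0.42 over the 8 and -0.0014 over all tested genes. Because the 8 varied together between libraries, as given below, their signs are not 8 separate observations. The groups overlapped in all 8, while 11.3% of tested genes had groups without overlap. In the same edgeR test HTA9 was called lower (log2 fold change -1.60, adjusted p = 0.0457), and HTA11 was not called (-1.935, adjusted p = 0.0924). The call on HTA9 held without mutant library 1 (adjusted p = 0.00234) and was lost without any other single library.

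**Figure D1:**
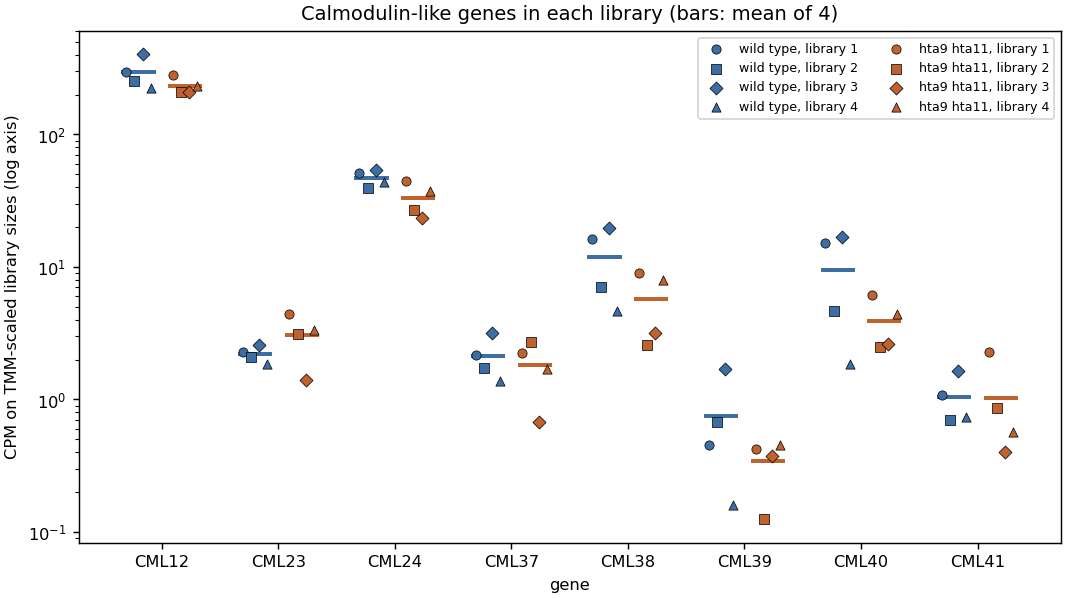
CPM of each calmodulin-like gene (x axis) in each of the 8 libraries, on a log axis; colour gives the genotype, symbol shape the library, and bars the mean of 4. The genotypes overlap in all 8 genes, and wild-type library 3 is the highest wild-type library in each.

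The touch genes TCH3 and TCH2 were the most abundant of the 8. CML12 (TCH3) encodes a calmodulin-like protein that binds the kinase PINOID, a regulator of auxin transport. Wild-type libraries 1 to 4 held 298, 255, 401 and 226 CPM of it and mutant libraries 1 to 4 held 283, 209, 210.5 and 233 CPM. Mutant libraries 1 and 4 lay inside the wild-type range, and wild-type library 3 stood above the rest. The means were 295 ± 76.7 and 234 ± 34.6 CPM (SD, n = 4). The log2 fold change was -0.34 (SE 0.17, 95% interval -0.71 to 0.04, adjusted p = 0.336), and -0.15 without wild-type library 3.

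CML24 (TCH2), which with CML23 is known to affect nitric oxide levels and the transition to flowering, had the smallest p of the 8. Wild-type libraries held 50.8, 39.4, 54.0 and 43.5 CPM, and mutant libraries held 44.2, 26.9, 23.4 and 37.3 CPM. Of the mutant libraries, library 1 alone lay within the wild-type range. The means were 46.9 ± 6.645 and 32.95 ± 9.54 CPM. The log2 fold change was -0.51 (SE 0.19, 95% interval -0.92 to -0.09, unadjusted p = 0.0215, adjusted p = 0.184). It passed in 1 of 16 alternatives, without mutant library 1 (log2 fold change -0.68, adjusted p = 0.0422). That fit called 1246 of 20322 genes, against 757 of 20214 with all 8 libraries. Over the 16 alternatives the adjusted p of CML24 ran up to 0.412.

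CML23, the paralog of CML24, had the opposite sign. Wild-type libraries held 2.30, 2.08, 2.56 and 1.86 CPM, and mutant libraries held 4.43, 3.11, 1.395 and 3.335 CPM. Mutant libraries 1, 2 and 4 were above every wild-type library, and mutant library 3 was below them all. The means were 2.199 ± 0.3004 and 3.07 ± 1.26 CPM, with a log2 fold change of 0.49 (SE 0.28, 95% interval -0.14 to 1.12, adjusted p = 0.4105). It was 0.25 without mutant library 1 and 0.72 without mutant library 3 (adjusted p = 0.617 and 0.0717). Whether CML23 and CML24 differ in their response to the genotype was not tested.

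CML38, CML39 and CML40 had the largest fitted differences and the widest scatter of the 8. CML38 is a hypoxia-induced protein found in cytosolic RNA granules. Wild-type libraries held 16.4, 7.02, 19.75 and 4.675 CPM, and mutant libraries held 8.99, 2.585, 3.19 and 8.04 CPM. Wild-type libraries 1 and 3 were above every mutant library, while wild-type libraries 2 and 4 lay within the mutant range. The means were 12.0 ± 7.255 and 5.70 ± 3.28 CPM, with a log2 fold change of -1.06 (SE 0.50, 95% interval -2.17 to 0.05, adjusted p = 0.301).

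CML40 had the same order of wild-type libraries as CML38, an order that CML12, CML23 and CML37 had too. Wild-type libraries held 15.1, 4.645, 16.7 and 1.86 CPM of CML40, so that the highest had 8.99 times the level of the lowest. Mutant libraries held 6.185, 2.485, 2.60 and 4.41 CPM, all inside the wild-type range. The means were 9.57 ± 7.41 and 3.92 ± 1.75 CPM, with a log2 fold change of -1.28 (SE 0.58, 95% interval -2.56 to 0.01, adjusted p = 0.280). RefSeq describes this locus as an EF-hand family gene without the name CML40. One of its 2 transcript models reaches LYK2 on the other strand, which stood at 0.4355 to 1.02 CPM over the 8 libraries. Whether the counting used strand is not given in the sources used here; the same limit holds for CML12 and CML24, whose antisense neighbours AT2G41105 and AT5G37760 had at most 0.108 and 0.0851 CPM in any library. The antisense lncRNAs AT2G09220, over CML12, and AT3G01055, over CML40, had at most 3 and 0 counts in any library.

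CML39, linked to early seedling establishment, rested on 5 to 63 counts per library. Wild-type libraries held 0.454, 0.677, 1.70 and 0.160 CPM, and mutant libraries held 0.422, 0.124, 0.372 and 0.457 CPM. Wild-type library 3 held 10.6 times the level of wild-type library 4, and every mutant library was below wild-type library 2. The means were 0.747 ± 0.668 and 0.344 ± 0.1505 CPM. The log2 fold change of -1.13 (SE 0.61, 95% interval -2.48 to 0.21, adjusted p = 0.3675) became -0.36 without wild-type library 3. RefSeq lists CML39 as a synonym of CML37 too; AT1G76640 is meant here.

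CML37 and CML41 had no direction that held across the alternatives. CML37 is a positive regulator of jasmonate-dependent defence against insects. Wild-type libraries held 2.185, 1.72, 3.18 and 1.38 CPM, and mutant libraries held 2.26, 2.71, 0.682 and 1.695 CPM, with mutant library 3 below all others. The means were 2.115 ± 0.783 and 1.84 ± 0.874 CPM, with a log2 fold change of -0.19 (SE 0.37, 95% interval -1.02 to 0.63, adjusted p = 0.837).

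CML41 acts at plasmodesmata, where it promotes callose deposition in immunity. Wild-type libraries held 1.08, 0.702, 1.64 and 0.7365 CPM, and mutant libraries held 2.28, 0.870, 0.403 and 0.565 CPM. Mutant library 1 was the highest of the 8 libraries, and mutant libraries 3 and 4 were the lowest. The means were 1.04 ± 0.437 and 1.03 ± 0.856 CPM. The log2 fold change of 0.02 (SE 0.50, 95% interval -1.08 to 1.13, adjusted p = 0.988) became -0.75 without mutant library 1.

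**Figure D2:**
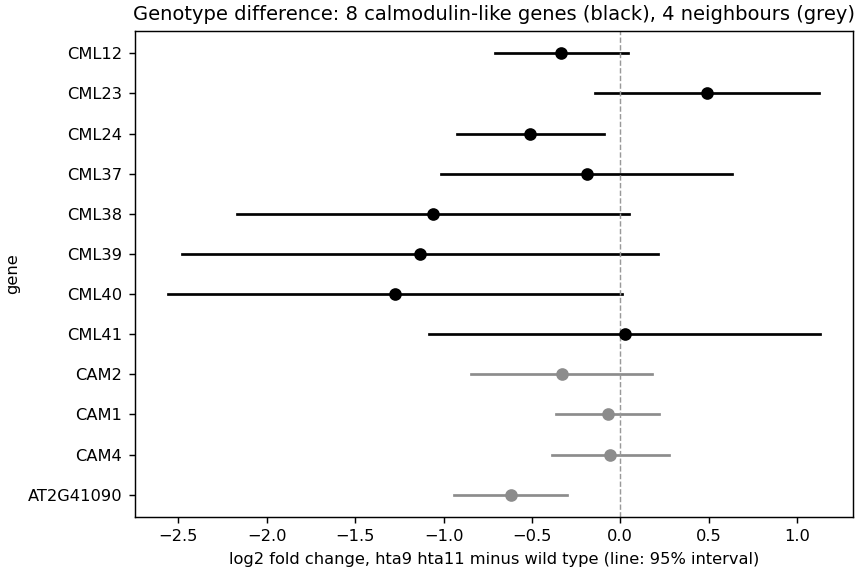
Fitted log2 fold change of mutant over wild type (x axis) with its 95% interval for the 8 calmodulin-like genes and for genes next to them in the genome. The intervals of 7 of the 8 include 0, and that of CML24 ends at -0.09 before adjustment over all genes.

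Per kilobase of exon (RPKM), CML12 stood at 116 ± 30.1 RPKM in the wild type, CML24 at 23.4 ± 3.31, CML38 at 12.05 ± 7.31 and CML40 at 7.34 ± 5.69 RPKM. Below them came CML23 at 2.255 ± 0.308, CML37 at 1.54 ± 0.570, CML39 at 1.22 ± 1.09 and CML41 at 1.12 ± 0.472 RPKM. CML12 was separated from CML24, and every other pair of neighbours in this order overlapped in range. In the mutant the order was CML12 (91.9 ± 13.6 RPKM), CML24 (16.4 ± 4.75), CML38 (5.74 ± 3.305), CML23 (3.15 ± 1.29), CML40 (3.01 ± 1.34), CML37 (1.34 ± 0.636), CML41 (1.11 ± 0.924) and CML39 (0.561 ± 0.246 RPKM). CML12 and CML24 were each separated from the next gene there, and the others overlapped their neighbours. Exon lengths were the union of all RefSeq transcripts of a gene.

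Libraries of 1 genotype differed more in these genes than in most others. The SD within genotypes, on the log2 CPM scale with genotype means removed, was 1.14 for CML40, 1.02 for CML39, 0.94 for CML38 and 0.82 for CML41. It was 0.70 for CML37, 0.51 for CML23, 0.33 for CML24 and 0.29 for CML12. The median over the 8 was 0.76, against 0.17 over all tested genes. Because low counts widen scatter, each gene was also set beside the 500 genes nearest to it in mean level. CML38 exceeded 99.6% of these, CML40 99.4%, CML39 98.4% and the other 5 between 93.0% and 96.4%. The median SD was as wide for 13 jasmonate genes (0.79) and 0.59 for 20 early touch and wound genes, so wide scatter was not particular to the 8. These spreads are a description, with no test.

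The scatter of a gene could differ between the genotypes. In the wild type the SD of log2 CPM was 1.49 for CML40, where counting error alone gives 0.116, and 1.26 for CML39, where it gives 0.404. For CML23 the wild-type SD was 0.19 against a counting error of 0.164, and the mutant SD 0.70 against 0.150. CML24, CML37 and CML41 also had the larger SD in the mutant (0.42, 0.85 and 1.02, against 0.21, 0.50 and 0.54), and CML12, CML38, CML39 and CML40 in the wild type. These differences in spread were not tested. The SD within genotypes became 0.80 for CML39 without wild-type library 3 and 0.81 for CML40 without wild-type library 4. It became 0.23 for CML23 and 0.44 for CML37 without mutant library 3, and 0.53 for CML41 without mutant library 1.

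**Figure D3:**
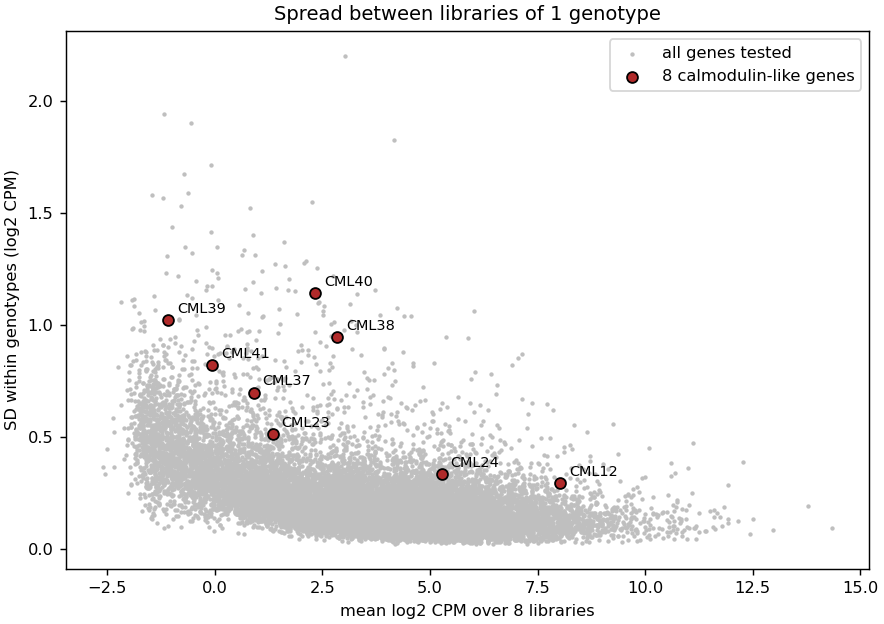
SD within genotypes on the log2 CPM scale (y axis) against mean level (x axis) for all 20214 tested genes and the 8 calmodulin-like genes. The 8 lie above most genes of like level, from 93.0% of them for CML12 to 99.6% for CML38.

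The same libraries were high or low in most of the 8 genes. Wild-type library 3 was the highest wild-type library in 8 of 8, and the lowest was library 4 in 6 and library 2 in 2. In the mutant, library 1 was the highest in 6, library 2 in CML37 and library 4 in CML39, and libraries 2 and 3 were the lowest in 4 each. Over all tested genes, wild-type library 3 was the highest in 18.7% and mutant library 1 in 32.4%. Averaged over the 8, wild-type libraries 1 to 4 lay 0.26, -0.25, 0.75 and -0.76 from their genotype mean on the log2 scale, and mutant libraries 1 to 4 lay 0.65, -0.25, -0.58 and 0.18 from theirs. Mutant libraries 1 and 3, which held the most HTA9 and HTA11, were the highest and the lowest of the mutant in this average.

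**Figure D4:**
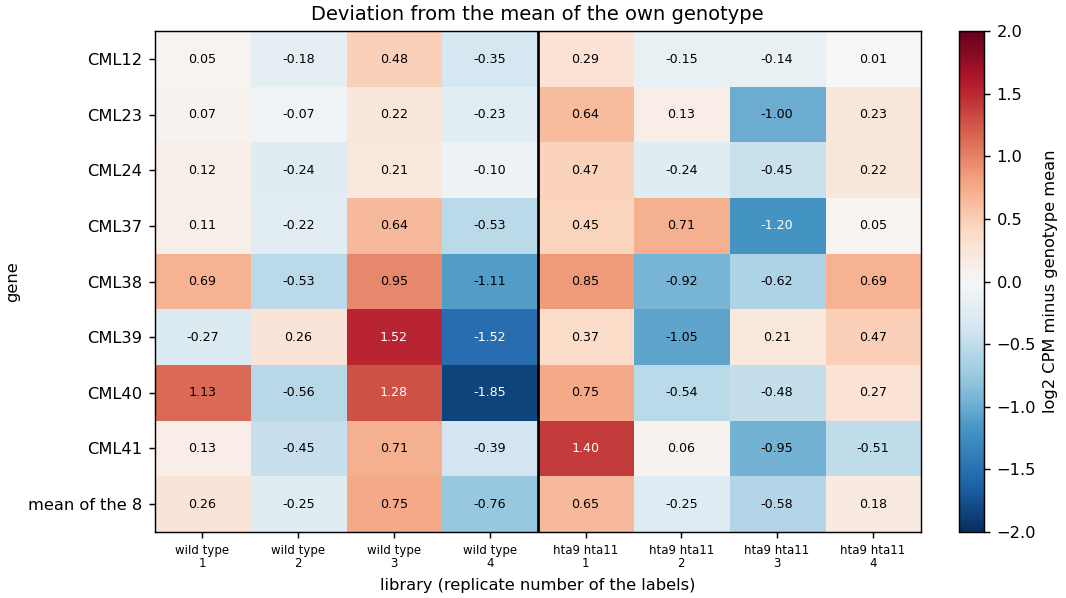
Deviation of each calmodulin-like gene (rows) from its genotype mean in each library (columns), as log2 CPM, with the mean of the 8. Wild-type library 3 is above its genotype mean in all 8 genes and wild-type library 4 below it in all 8.

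With genotype means removed, all 28 pairs of the 8 genes had a positive Pearson r over the 8 libraries, which share their depth and scaling. It ran from 0.21 for CML23 with CML39 to 0.92 for CML38 with CML40, with a median of 0.69. The same was not computed for pairs of other genes, so these values are a description. The tandem neighbours CML38 and CML39 were at 0.74 and the paralogs CML23 and CML24 at 0.84. CML23 was at 0.88 with CML37 and 0.80 with CML41, and these 3 genes and CML24 were lowest in mutant library 3.

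Many other genes had a like profile. Of 14829 other genes with a mean of at least 5 CPM, 389 had an r above 0.9 with the mean deviation of the 8 genes and 267 an r under -0.9, with a median of 0.0084. The 10 likest were GILP, XBAT34, OBE1, VPS28-1, ACHT2, CPK9, AT3G08780, UCP5, AT3G01820 and AT3G52800, from 0.991 for GILP to 0.988 for AT3G52800 over 8 libraries. Wild-type libraries held 36.3, 28.2, 47.6 and 21.5 CPM of GILP, and mutant libraries held 35.5, 20.7, 20.05 and 27.1 CPM. Its wild-type libraries had the order of those of CML12, which its choice by r with the 8 genes makes likely. CPK9 encodes a calcium-dependent protein kinase, and AT3G01820 is the gene next to CML40, divergent from it with 299 bases between them. The 3 least like were AT3G26560 (-0.991), MOL1 (-0.989) and MAP70-2 (-0.985). The genotype test called 0 of these 13, against 3.74% of all tested genes.

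The calmodulins themselves had a median SD within genotypes of 0.23. Of 7 tested, 0 passed with edgeR, with DESeq2 and with limma-voom, against 3.74% of all tested genes with edgeR. At an unadjusted p under 0.05 there were 0, against 18.0% of tested genes. All 7 had a fitted log2 fold change below 0, as did 50.3% of tested genes. It ran from -0.33 for CAM2 to -0.01 for CAM6, with a median of -0.07. CAM3 stood at 222.5 ± 47.0 and 191.5 ± 44.75 CPM in the wild type and the mutant, CAM1 at 147 ± 26.2 and 140.1 ± 18.3, CAM2 at 58.45 ± 15.6 and 46.4 ± 14.3, and CAM4 at 145 ± 26.6 and 139.5 ± 24.3 CPM. Mutant library 1 was the highest mutant library in all 7, against 32.4% of tested genes. The highest wild-type library was library 1 in 5 of them and library 3 in 2.

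Of 42 other calmodulin-like or EF-hand genes, 27 were tested and 1 passed, a share near the 3.74% over all tested genes, with a median log2 fold change of -0.09 and a median SD within genotypes of 0.28. At an unadjusted p under 0.05 there were 2 of the 27, against 18.0% of tested genes. The gene that passed was AT2G41090, the gene before CML12 on the same strand. Wild-type libraries held 1077, 849.8, 1012 and 957 CPM, and mutant libraries held 848, 541.5, 605 and 542 CPM. The groups did not overlap, with mutant library 1 just under wild-type library 2. AT2G41090 fell from 974 ± 96.2 to 634 ± 146 CPM, with log2 fold change -0.62, SE 0.14 and adjusted p = 0.0431 in edgeR's test.

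The call on AT2G41090 depended on single libraries. Its adjusted p was 0.102, 0.05605, 0.103 and 0.0806 without wild-type libraries 1 to 4. It was 0.00266, 0.125, 0.09685 and 0.142 without mutant libraries 1 to 4. It was 0.0572 with upper-quartile scaling and 0.0515 with the stricter count filter. CML12 did not pass, and the difference between these neighbours was not tested; their coding sequences shared 58.9% of aligned bases, with a longest identical run of 20 bases.

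Of 20 early touch and wound response genes tested, 3 fell and 0 rose, against 1.25% lower and 2.49% higher over all tested genes. The fitted log2 fold change was below 0 in 11 of the 20, against 50.3% of tested genes, with a median of -0.29. At an unadjusted p under 0.05 there were 8 of the 20, against 18.0% of tested genes. The list was chosen with earlier results of these data known, so these shares are a description and not a test. DREB26, an AP2/ERF transcription factor, held 10.3, 6.46, 6.28 and 12.8 CPM in wild-type libraries and 2.72, 2.36, 2.42 and 1.18 CPM in mutant ones. The groups were well apart, and DREB26 passed also without any single library (log2 fold change -2.03, SE 0.29, adjusted p = 0.00647). TCH4, a touch-induced xyloglucan endotransglucosylase, held 72.3, 48.5, 65.4 and 102 CPM in wild-type libraries and 46.2, 25.2, 17.4 and 28.65 CPM in mutant ones (log2 fold change -1.29, SE 0.29, adjusted p = 0.0379). Its highest wild-type library was library 4, the lowest for TCH3. WRKY33, a defence transcription factor, held 43.9, 38.7, 33.0 and 37.95 CPM in wild-type libraries and 31.0, 29.2, 27.0 and 26.4 CPM in mutant ones (log2 fold change -0.43, SE 0.10, adjusted p = 0.0372). Of TCH2, TCH3 and TCH4, the last was called and the others were not; the difference between them was not tested.

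The calls on TCH4 and WRKY33 depended on single libraries too. TCH4 had an adjusted p of 0.0784, 0.0714 and 0.0815 without wild-type library 1, 3 or 4, and of 0.114, 0.0697 and 0.119 without mutant library 2, 3 or 4. WRKY33 had 0.0787, 0.0751 and 0.07385 without wild-type library 1, 2 or 4, and 0.09375, 0.0846 and 0.126 without mutant library 2, 3 or 4. WRKY33 was also at 0.05025 with upper-quartile scaling and 0.0863 without both mutant libraries 1 and 3. Mutant library 1 was the highest mutant library in all 20 of these genes, against 32.4% of tested genes. The highest wild-type library was library 1 in 9 of them, library 3 in 7, library 4 in 3 and library 2 in 1.

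Of 13 genes of jasmonate synthesis, repression and output, 1 fell and 0 rose, against 1.25% lower and 2.49% higher over all tested genes, with a median log2 fold change of -0.31. At an unadjusted p under 0.05 there were 3 of the 13, against 18.0% of tested genes. This list, too, was chosen with earlier results of these data known. JAZ7, a repressor of jasmonate signalling, held 13.1, 9.92, 15.8 and 4.93 CPM in wild-type libraries and 4.94, 1.29, 2.63 and 4.28 CPM in mutant ones. Wild-type library 4 was level with mutant library 1, and the other 3 wild-type libraries were above the mutant (log2 fold change -1.73, SE 0.41, adjusted p = 0.0469). The adjusted p was 0.105, 0.0852 and 0.114 without wild-type library 1, 2 or 3, and 0.0946, 0.109 and 0.109 without mutant library 2, 3 or 4. JAZ7 also did not pass with limma-voom (adjusted p = 0.0638), the replicate block (0.0603), upper-quartile scaling (0.0534) or the stricter count filter (0.0557). Wild-type library 3 was the highest wild-type library in 10 of the 13, against 18.7% of tested genes, and library 4 in 3. In the mutant, library 1 was the highest in 9 of them, library 3 in 3 and library 4 in 1.

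Of the 6 CAMTA factors and of 13 genes for calcium entry, calcium export and mechanical sensing, edgeR and limma-voom called 0. Over all tested genes, edgeR called 3.74%. At an unadjusted p under 0.05 there were 0 of the 6 and 1 of the 13, against 18.0% of tested genes. DESeq2 called 0 and 1, the latter the channel gene CNGC4, against 1504 of all 20214 tested genes. The CAMTA and calcium lists had median log2 fold changes of -0.0068 and -0.04, and median SD within genotypes of 0.11 and 0.13. CAMTA3, a repressor of defence genes, stood at 56.9 ± 4.47 and 54.75 ± 2.25 CPM in the wild type and the mutant, and CAMTA5 at 54.1 ± 5.04 and 51.9 ± 3.07 CPM. CAX1, a vacuolar calcium exchanger, stood at 258 ± 18.6 and 234 ± 25.75 CPM, and the receptor kinase gene FER at 174 ± 25.7 and 164 ± 12.95 CPM.

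**Figure D5:**
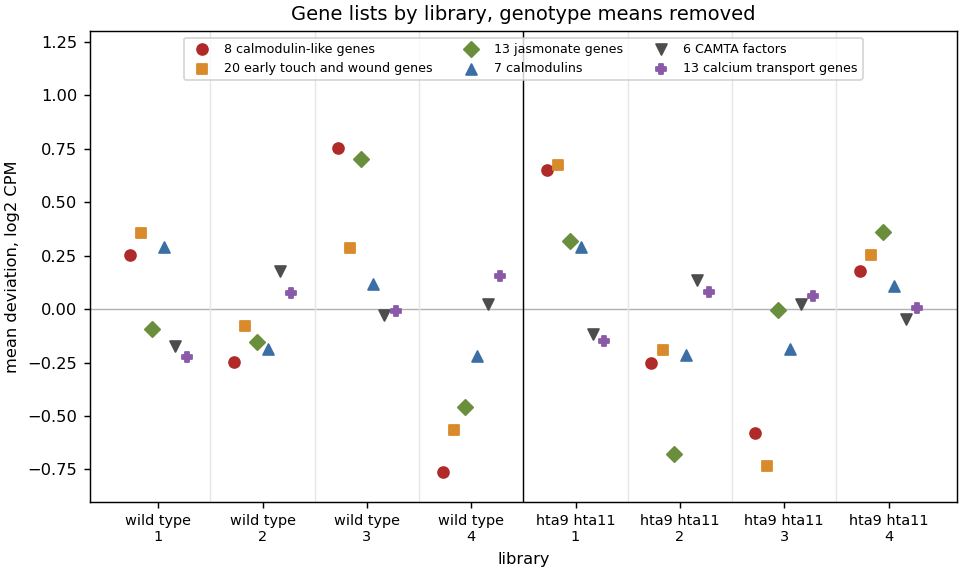
Mean deviation from the genotype mean (y axis, log2 CPM) of gene lists in each library (x axis). The 8 calmodulin-like genes range from -0.76 to 0.75, the early touch and wound genes from -0.74 to 0.67 and the CAMTA factors from -0.17 to 0.18.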

How the data were processed

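The 8 libraries were directional poly(A) libraries, per the labels' protocols. The submitters' processing notes name the build TAIR10 and the tools fastp 0.23.2, HISAT2 2.2.1, SAMtools 1.17, limma and DESeq2, with no roles. The authors deposited whole-number counts per gene, 1 column per library; the counting program and its strand setting are not stated in the sources used. Groups came from the sample titles.

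From these counts, genes were filtered with filterByExpr, scaled with TMM and tested with edgeR 4.0.16 under R 4.3.3. Standard errors were derived from the fold change and the F statistic, and log2 CPM used a prior count of 2. Alternatives were DESeq2 1.42.0, limma 3.58.1, other scalings, filters and thresholds, a replicate block and left-out libraries. The labels call the libraries biological replicates. Gene models and promoters came from RefSeq TAIR10.1.

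The members and lists were chosen with earlier results of these data known. Named besides the 8 were up to 4 genes per list that passed, or the 2 most abundant where 0 passed, HTA9, HTA11, the neighbours CAM1, CAM2, CAM4 and AT2G41090, and the 10 most and 3 least like genes. LYK2, AT2G41105, AT5G37760, AT2G09220, AT3G01055, CNGC4 and ERF104 were named after their values were seen.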

Additional observations from a re-analysis of the deposited data

Results flagged for a closer look

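AT2G41105, which overlaps CML12 on the other strand, stood far from the other libraries in library 3 of both genotypes, at 0.108 CPM (wild type) and 0.062 CPM (mutant). These are 4 and 2 counts, and the gene did not pass the count filter. The other mutant libraries had 0 counts, so any count in a single library would stand apart there. Of 78 groups of 4 libraries checked in this way, chance alone gives about 5%.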

How the results depend on the processing

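The count of 0 among the 8 genes held in all alternatives except the one without mutant library 1, which called CML24; leaving out 1 library at a time gave 0 to 1. Over all genes, against 757, leaving out 1 library gave 208 calls (without mutant library 4) to 1246 (without mutant library 1). DESeq2 gave 1504 and an adjusted p under 0.01 gave 152. Upper-quartile scaling moved the split from 504 higher and 253 lower to 552 and 195. Of the other calmodulin-like genes, upper-quartile scaling, the filter of at least 1 CPM in 4 libraries and an adjusted p under 0.01 called 0, and leaving out 1 library 0 to 2. Of the early touch and wound genes, an adjusted p under 0.01 called 1, and leaving out 1 library 1 to 4, with ERF104 rising without mutant library 3. Of the jasmonate genes, upper-quartile scaling, the stricter filter, limma-voom, an adjusted p under 0.01 and leaving out mutant libraries 1 and 3 called 0. No count filter and DESeq2 called 2 of them, and leaving out 1 library 0 to 2. DESeq2 called 1 gene of calcium entry and export.

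The log2 fold change of CML37 was 0.056 without mutant libraries 1 and 3, and ran from -0.43 to 0.073 with 1 library left out (0.073 without wild-type library 3, 0.064 without mutant library 3). That of CML41 was -0.0068 with DESeq2, -0.16 with limma-voom and -0.53 without mutant libraries 1 and 3. With 1 library left out it ran from -0.75 to 0.33, with -0.14 and -0.10 without wild-type libraries 2 and 4. The causes were not tested. CML39 and CML41 were not tested under the stricter filter.

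Over the 5000 genes highest in mean log2 CPM, the deviations of same-numbered libraries from their genotype means correlated at 0.70, 0.73, -0.43 and -0.45. Wild-type libraries 1 and 2 correlated best with the mutant library of their own number, and wild-type libraries 3 and 4 did not. With 4 libraries per genotype and genotype means removed, these values cannot decide whether the numbers pair the samples. The fit with the replicate block called 847 genes, 608 of them shared with the fit without it, 0 of the 8, 2 of the other calmodulin-like genes and 0 of the jasmonate genes, and gave CML41 -0.13.

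Depth limited CML39 most, with 5 counts in its lowest libraries.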
